A study of Mus musculus with 12 samples.

Results

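The proteasome is the protease complex that degrades ubiquitin-tagged proteins in the cytosol and nucleus, and 43 gene symbols among the 23238 in the deposited tables name its subunits, its dedicated base chaperones and its activators. The members are all symbols made of Psm, one of the letters a to e, and a number. They were measured in 12 RNA libraries of cells taken from the meninges of mice 20 weeks old by magnetic sorting for meningeal lymphatic endothelial cells (mLEC). The groups are AD_TG, AD_B6 and SJL_B6 with 4 libraries each, named by the sample titles; the submitters give C57BL/6 as the strain of all 12, state 3 to 4 mice per strain, and do not spell out AD, TG, SJL or B6. The series' title names DSCR1 upregulation, dural lymphatic drainage and amyloid pathology of Alzheimer's disease, but no label says which mice carry which allele or transgene. AD_TG and AD_B6 therefore differ in TG against B6, while AD_B6 and SJL_B6 differ in AD against SJL. No label says whether the 4 libraries of a group come from separate animals or from pools, so each p-value below measures only the spread between these libraries, which may be partly technical.

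As background, the core particle is a barrel of stacked rings. The outer alpha rings (Psma genes) gate the channel, and the inner beta rings (Psmb genes) hold 3 catalytic subunits, each of which cuts with the threonine that becomes its first residue after the propeptide is removed. Psmb5 gives the chymotrypsin-like, Psmb6 the caspase-like and Psmb7 the trypsin-like activity of the constitutive particle. In immune cells, and in most cells exposed to interferon gamma, Psmb8, Psmb9 and Psmb10 take the places of Psmb5, Psmb6 and Psmb7 to form the immunoproteasome, which supplies peptides for major histocompatibility complex class I. The regulatory particle has a base of ATPases (Psmc genes) that unfolds substrates and a lid that removes ubiquitin, and the Psme genes encode activators that open the barrel without ubiquitin.

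The 3 immune subunits and the constitutive subunits they replace are paralogs, and the coding stretch around each catalytic threonine is shown for how alike the partners are at the site that cuts. The kit reads transcripts near their ends, so this stretch says nothing of which reads were counted for which gene. Each line gives the 48 coding bases that begin at the threonine codon, from the GENCODE M21 transcripts of the GRCm38 build, 5′ to 3′ on the coding strand, with the bases that differ from the partner in capitals.
Psmb8: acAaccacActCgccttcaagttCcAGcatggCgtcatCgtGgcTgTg
Psmb5: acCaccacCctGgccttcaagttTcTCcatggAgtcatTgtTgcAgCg
Psmb9: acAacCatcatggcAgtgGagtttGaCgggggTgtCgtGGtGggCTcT
Psmb6: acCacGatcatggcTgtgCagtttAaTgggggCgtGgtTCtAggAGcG
Psmb10: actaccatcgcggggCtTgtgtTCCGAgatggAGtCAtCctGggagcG
Psmb7: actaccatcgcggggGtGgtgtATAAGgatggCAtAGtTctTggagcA

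Psmb8 and Psmb5 share 37 of the 48 bases (77.1%), and the other pairs, Psmb9 with Psmb6 and Psmb10 with Psmb7, share 34 each (70.8%). The Psmb8 stretch lies at chr17:34199302-34199349 on the plus strand, in exon 2 of 6, and starts at codon 73 of 276. That of Psmb9 lies on the same chromosome at chr17:34185750-34185797 on the minus strand, in exon 2 of 6, from codon 21 of 219. The Psmb10 stretch spans exons 2 and 3 of 8 at chr8:105937571-105937705 on the minus strand, from codon 40 of 273. Among the constitutive genes, the Psmb5 stretch joins exons 1 and 2 of 3 at chr14:54616795-54617814 on the minus strand, from codon 60 of 264. The Psmb6 stretch is in exon 2 of 6 at chr11:70525885-70525932 on the plus strand, from codon 34 of 238, and the Psmb7 stretch joins exons 2 and 3 of 8 at chr2:38642255-38643384 on the minus strand, from codon 44 of 277. Over whole transcripts, Psmb7, Psmb8, Psmb9 and Psmb10 share no run of 50 bases with any other annotated gene and Psmb6 shares 2.67% of its runs. Psmb5 shares 54.1%, mostly with the gene model Gm3375 (46.8%). How the authors' counting treated such shared runs is not given in the sources used here, and the number of reads they touch was not measured.

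The authors deposited 1 value per symbol on a log2(x + 1) scale; every level below is such a value, and a difference of 1 is a doubling of x + 1. The values are not divided by transcript length, and the kit reads transcripts near their ends. How reads per transcript differ between genes was not measured, so a gene is compared across libraries and not with other genes. A gene is called detected where x, its linear value, is 0.3 or more, and otherwise it is listed at or near 0. Low values of a library fall on evenly spaced steps, which put its depth at 4070924 to 9266737 assigned reads. AD_B6 replicate 3 stands apart, with 8748 symbols detected against 10438 to 12217 in the other 11 libraries. Its estimated depth, 8913883 reads, is near the upper end of that range of depths. The differences of named proteasome genes that use AD_B6 are given with and without this library. Of 8 lymphatic endothelial markers, 2 (Pdpn and Nrp2) were detected in all 12 libraries, Lyve1 in 11 and Ccl21a in 9. Flt4 and Mmrn1 were detected in 6 each, Reln in 4 and Prox1, the defining transcription factor, in 2. Together the 8 made up 0.0157 to 0.0319% of the linear total in AD_TG, 0.0183 to 0.0315% in AD_B6 and 0.0175 to 0.0539% in SJL_B6. All 10 macrophage markers were detected in every library and summed to 0.295 to 0.434% in AD_TG, 0.189 to 0.481% in AD_B6 and 0.364 to 0.584% in SJL_B6. The 5 choroid plexus markers summed to 1.93 to 8.03% in AD_TG, 0.309 to 10.9% in AD_B6 and 0.226 to 6.47% in SJL_B6; their part in the results was not tested. The libraries are bulk RNA of mixed cells, and fewer cells of a type cannot be told apart from less RNA per cell.

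Nearly every proteasome gene was present in nearly every library. Of the 43 members, 31 (72.1%) were detected in all 12 libraries, against 4950 of the 23238 symbols (21.3%). Among the genes tested below, it was 73.2% of the 41 members and 41.3% of all genes. Much of that gap goes with level. Between means of 4 and 8 it was 50 against 23.0%, between 8 and 9 it was 100 against 90.7%, and between 9 and 10 it was 91.7 against 98.8%. The members detected per library numbered 41, 42, 43 and 42 in AD_TG, 42, 42, 33 and 40 in AD_B6, and 41, 42, 43 and 40 in SJL_B6. The lowest count, 33, is that of AD_B6 replicate 3, in which 9 of the 41 members tested below were not detected, while 31.6% of all tested genes were not detected there. Those 9 are Psma5 of the alpha ring, Psmb4, Psmb7 and Psmb10 of the beta ring, Psmd6, Psmd12 and Psmd14 of the lid, and the chaperones Psmd5 and Psmd9. Together the members made up 0.269 to 0.416% of the linear total of a library.

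**Figure D1:**
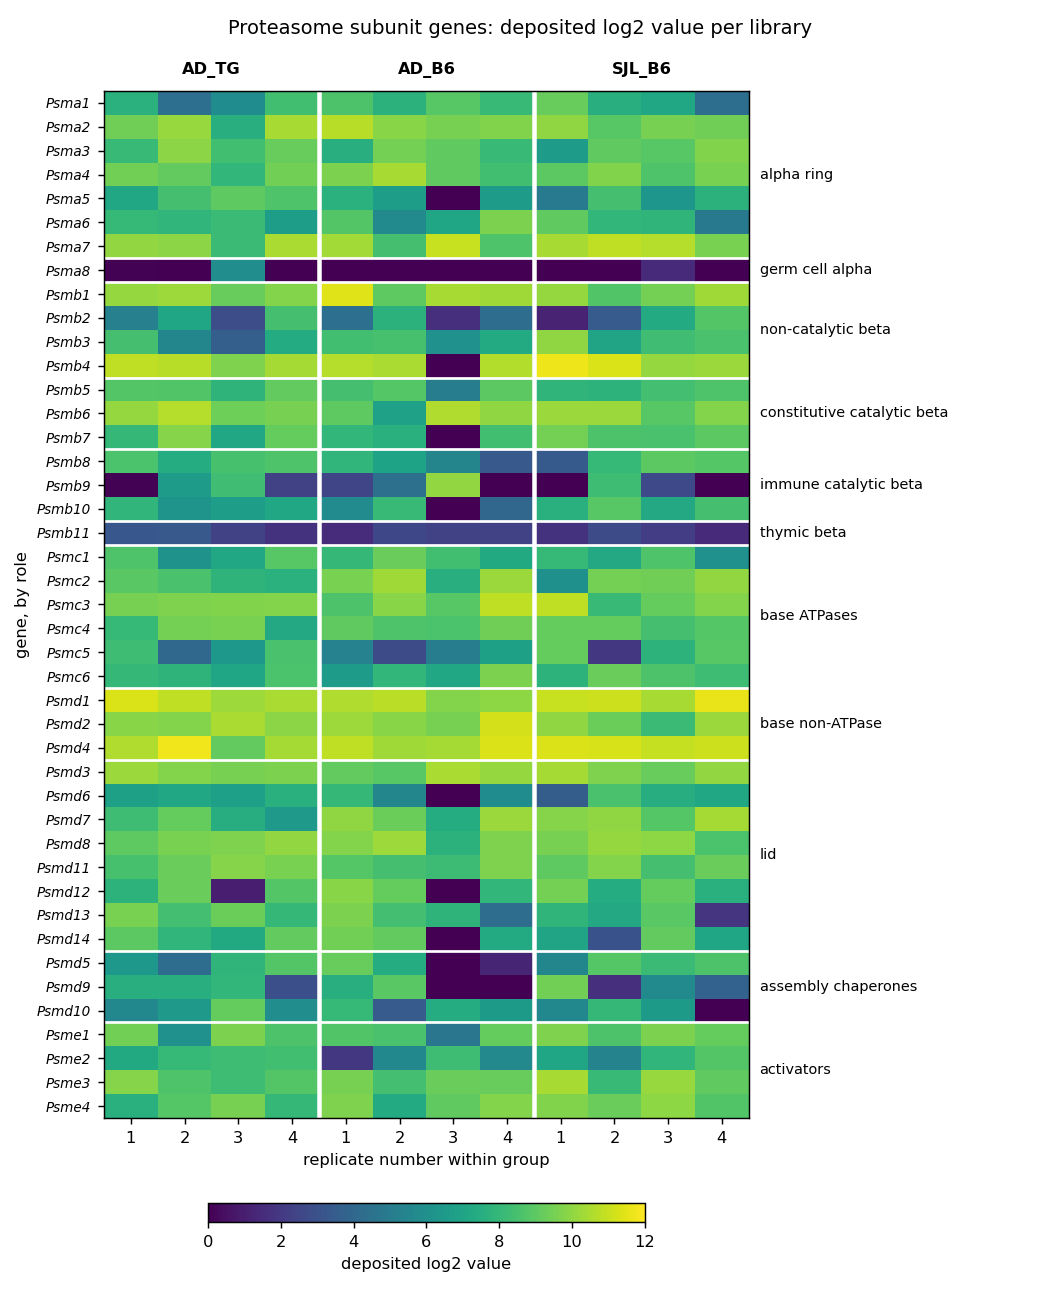
Deposited log2(x + 1) value of the 43 proteasome genes (down the page, grouped by role) in the 12 libraries (across, AD_TG, AD_B6 and SJL_B6). Tested genes at high levels mostly keep a like shade across libraries, and those at lower levels vary more. The largest SDs over the 12 libraries are those of Psmb9 (3.70), Psmd9 (3.43), Psmd12 (3.28), Psmb4 (3.11) and Psmd5 (3.07). The column of AD_B6 replicate 3 holds 9 of the 15 cells in which a tested member was not detected.

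The 3 constitutive catalytic subunits were detected in all 12 libraries, but for Psmb7 in AD_B6 replicate 3. Psmb5 was at 8.77, 8.74, 7.82 and 9.13 in AD_TG, 8.44, 8.81, 5.02 and 8.99 in AD_B6, and 7.87, 7.78, 8.43 and 8.67 in SJL_B6. Psmb6 was at 10.11, 10.65, 9.37 and 9.54 in AD_TG, 9.03, 6.86, 10.59 and 9.996 in AD_B6, and 10.19, 10.21, 8.86 and 9.79 in SJL_B6. For both genes the 3 groups overlap, and the lowest value is that of a single AD_B6 library, replicate 3 for Psmb5 and replicate 2 for Psmb6. Psmb7 was at 8, 9.83, 7.16 and 9.17 in AD_TG, 7.94, 7.61, 0 and 8.36 in AD_B6, and 9.50, 8.63, 8.56 and 8.98 in SJL_B6. Every AD_B6 value of Psmb7 lay below every SJL_B6 value, the nearest being 8.36 in AD_B6 and 8.56 in SJL_B6, while AD_TG overlapped both.

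Among the immune catalytic subunits, Psmb8 was detected in 12, Psmb10 in 11 and Psmb9 in 8 of the 12 libraries. Psmb8 was at 8.59, 7.45, 8.52 and 8.68 in AD_TG, 7.92, 6.97, 5.45 and 3.35 in AD_B6, and 3.39, 8.02, 8.98 and 8.83 in SJL_B6. The 4 AD_TG libraries lay within a narrow band, whereas AD_B6 replicate 4 and SJL_B6 replicate 1 were far below the rest, so the groups overlap. Psmb10 was at 7.88, 6.21, 6.74 and 7.18 in AD_TG, 5.79, 8.11, 0 and 3.95 in AD_B6, and 7.61, 8.89, 7.26 and 8.48 in SJL_B6. AD_B6 held both the lowest values and 1 of the 3 highest, so it overlaps the other groups. Psmb9 was at 0.07, 6.64, 8.31 and 2.34 in AD_TG, 2.51, 4.45, 10.07 and 0.03 in AD_B6, and 0.02, 8.29, 2.63 and 0 in SJL_B6. Each group has at least 1 library in which Psmb9 was not detected and at least 1 above 8, so its spread within a group exceeds any gap between groups.

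In some libraries the 3 immune subunits stood at like levels of their ranges and in others they did not. The libraries named here were chosen after their values were seen. SJL_B6 replicate 2 had all 3 at 8.02 or more, and AD_B6 replicate 4 had all 3 at 3.95 or less. AD_B6 replicate 3 had the highest Psmb9 value of the 12 libraries, 10.07, an estimated 1538 reads, while its Psmb10 was listed at 0 and its Psmb8 was at 5.45. SJL_B6 replicate 4 had Psmb9 at 0 beside Psmb8 at 8.83 and Psmb10 at 8.48. Psmb8 and Psmb9 lie close together on chromosome 17, in the class II region that also holds the peptide transporter genes Tap1 and Tap2.

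**Figure D2:**
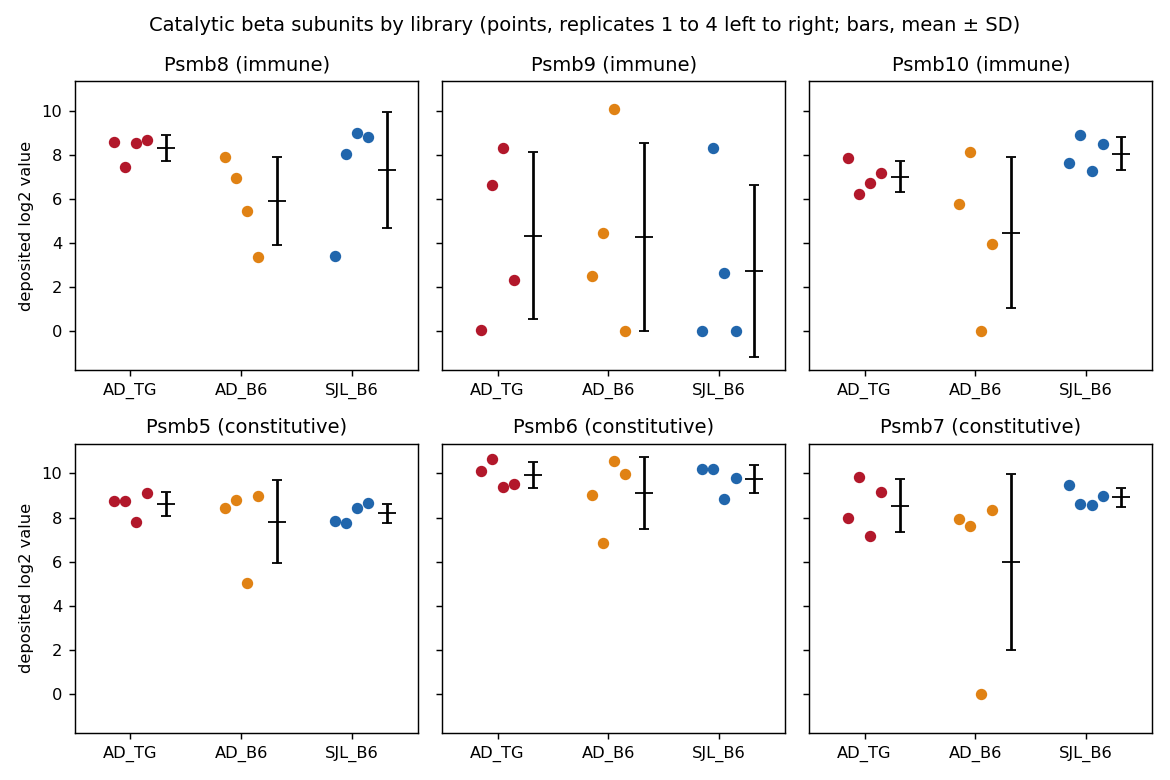
Deposited log2(x + 1) value of the immune subunits Psmb8, Psmb9 and Psmb10 and of the constitutive subunits Psmb5, Psmb6 and Psmb7 that they replace, 1 point per library, with AD_TG, AD_B6 and SJL_B6 from left to right. The groups overlap for each gene except Psmb7, where the 4 AD_B6 libraries (0 to 8.36) lie below the 4 SJL_B6 libraries (8.56 to 9.50), and Psmb9 ranges from 0 to 10.07.

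The mean level of the 3 immune genes minus that of the 3 constitutive genes was taken in each library. Its zero is given no meaning, because reads per transcript may differ between genes, and the score is read only across libraries. It was -3.45, -2.97, -0.26 and -3.21 in AD_TG, -3.06, -1.25, -0.03 and -6.67 in AD_B6, and -5.51, -0.47, -2.33 and -3.37 in SJL_B6. Each group spans values near 0 and values below -3, so the groups overlap over most of their range. Genes listed at or near 0 weigh heavily in this score. In AD_B6 replicate 3, with Psmb7 and Psmb10 at 0, the immune mean was 5.17 and the constitutive mean 5.20. The constitutive mean of the other libraries was 7.76 to 9.74. The lowest scores, -6.67, -5.51, -3.45 and -3.37, were those of the libraries in which Psmb9 was not detected. The group means were -2.47 ± 1.49 in AD_TG, -2.75 ± 2.90 in AD_B6 and -2.92 ± 2.10 in SJL_B6 (SD, n = 4 each). The differences between groups, 0.17 for AD_B6 minus SJL_B6, 0.28 for AD_TG minus AD_B6 and 0.45 for AD_TG minus SJL_B6, were all smaller than the spread within any group. The first and second became -0.74 and 1.19 without AD_B6 replicate 3, and 1.47 and -1.02 without AD_B6 replicate 4. As a score over chosen genes it was given no test. The B cell and T and NK cell marker lists, whose cells carry immune subunits constitutively, summed to at most 0.0024% and 0.0028% of the linear total in AD_TG, 0.0025% and 0.0015% in AD_B6, and 0.0063% and 0 in SJL_B6, to 4 decimals. Cd3e and Cd3g were listed at 0 in all 12 libraries. Dendritic cell markers summed to 0.0015 to 0.0088% in AD_TG, 0.0027 to 0.0068% in AD_B6 and 0 to 0.0123% in SJL_B6. The part of any of these cells, or of the macrophages above, in the immune subunit levels was not tested.

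The 7 alpha ring genes other than Psma8 had means over the 12 libraries of 6.81 to 9.89, and 6 of them were detected in every library. Psma4 had the smallest spread, with 9.43, 9.11, 7.96 and 9.45 in AD_TG, 9.63, 10.41, 9.07 and 8.38 in AD_B6, and 8.997, 9.71, 8.70 and 9.60 in SJL_B6, an SD of 0.66 over the 12 libraries. Psma5 had the largest, with 7.19, 8.45, 9.001 and 8.70 in AD_TG, 7.66, 6.69, 0 and 6.61 in AD_B6, and 4.88, 8.48, 6.32 and 7.71 in SJL_B6. The AD_B6 values of Psma5 overlap AD_TG through replicate 1 alone, and Psma5 shares 54.5% of its 50-base runs with other gene models. Psma1 was at 7.67, 4.40, 5.85 and 8.35 in AD_TG, 8.65, 7.73, 8.89 and 8.11 in AD_B6, and 9.20, 7.51, 7.13 and 4.36 in SJL_B6. Its AD_B6 libraries kept within a narrow band, and the other groups each had libraries well below it. The other alpha ring genes ranged over 7.58 to 10.73 for Psma2, 6.60 to 9.90 for Psma3, 4.86 to 9.65 for Psma6 and 8.18 to 10.99 for Psma7, with overlapping groups for each. Psma8, the alpha subunit of germ cells, was detected in 2 libraries, at 5.90 in AD_TG replicate 3 (57 estimated reads) and at 1.48 in SJL_B6 replicate 3, and lay between 0 and 0.07 in the other 10.

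In the beta ring, the non-catalytic genes Psmb1 to Psmb4 differed widely in spread. Psmb1 was at 10.08, 10.26, 9.23 and 9.76 in AD_TG, 11.41, 9.04, 10.43 and 10.31 in AD_B6, and 10.09, 8.75, 9.51 and 10.29 in SJL_B6, with overlapping groups and an SD of 0.72. Psmb4 was at 10.83, 10.73, 9.68 and 10.36 in AD_TG, 10.68, 10.46, 0 and 10.60 in AD_B6, and 11.69, 11.30, 10.09 and 10.18 in SJL_B6. Thus 11 of the 12 Psmb4 values lie within 9.68 to 11.69, and the SD of 3.11 comes from the 0 in AD_B6 replicate 3. Of 862 genes at 9 or more in the other 11 libraries, 4 were not detected in that library and Psmb4 is 1 of these; in each of the other libraries the same count was 0. Psmb3 was at 8.46, 5.52, 3.62 and 7.38 in AD_TG, 8.38, 8.50, 6.08 and 7.34 in AD_B6, and 10.01, 7.03, 8.33 and 8.54 in SJL_B6. Its 2 lowest values are both in AD_TG, but AD_TG replicates 1 and 4 lie within the SJL_B6 range, and 55.8% of its 50-base runs occur in other gene models. Psmb2 was detected in all 12 libraries but ranged from 1.14 to 8.77, with values below 4 and above 7 in each group. Psmb11, the beta subunit of thymic cortical epithelium, lay between 1.42 and 3.37 in all 12 libraries, at most 12 estimated reads.

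The 6 base ATPases were detected in all 12 libraries, with means of 6.24 to 9.58. Psmc4 had the smallest spread (SD 0.67), at 8.03, 9.50, 9.57 and 7.23 in AD_TG, 9.09, 8.68, 8.62 and 9.38 in AD_B6, and 9.17, 9.16, 8.46 and 8.84 in SJL_B6. Psmc5 had the largest (SD 2.44), at 8.25, 4.04, 6.40 and 8.55 in AD_TG, 5.30, 2.77, 5.05 and 6.81 in AD_B6, and 9.16, 1.93, 7.76 and 8.89 in SJL_B6. Low Psmc5 values thus occurred in every group, and the lowest was in SJL_B6 replicate 2. Psmc2 was at 8.93, 8.56, 7.79 and 7.66 in AD_TG, 9.61, 10.30, 7.58 and 10.20 in AD_B6, and 6.02, 9.51, 9.39 and 10.06 in SJL_B6. Apart from AD_B6 replicate 3 and SJL_B6 replicate 1, every AD_B6 and SJL_B6 library lay above all AD_TG libraries for Psmc2. Psmc3 ranged from 9.53 to 9.78 in AD_TG (SD 0.11), 8.65 to 10.86 in AD_B6 (SD 1.01) and 8.15 to 10.86 in SJL_B6 (SD 1.13), so AD_TG lies inside both other ranges. The remaining ATPases ranged over 6.09 to 9.25 for Psmc1 and 6.60 to 9.63 for Psmc6.

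The base scaffolds Psmd1 and Psmd2 and the ubiquitin receptor Psmd4 were among the steadiest members, with SDs of 0.55 to 0.73 over the 12 libraries. Psmd1 was at 11.33, 10.86, 10.22 and 10.49 in AD_TG, 10.58, 10.75, 9.75 and 9.94 in AD_B6, and 11.01, 11.06, 10.41 and 11.61 in SJL_B6. Psmd2 was at 9.86, 9.76, 10.49 and 9.91 in AD_TG, 10.22, 9.86, 9.52 and 11.23 in AD_B6, and 10.01, 9.31, 8.16 and 10.18 in SJL_B6. All 3 groups overlap for both scaffolds. Psmd4 was at 10.55, 11.72, 9.11 and 10.39 in AD_TG, 10.86, 10.28, 10.39 and 11.37 in AD_B6, and 11.38, 11.29, 10.96 and 11.10 in SJL_B6. The SD of Psmd4 was 1.07 in AD_TG, 0.50 in AD_B6 and 0.19 in SJL_B6 (n = 4 each), and the groups overlap.

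In the lid, 5 of 8 genes were detected in all 12 libraries. Psmd7, the partner of the deubiquitinase Psmd14, was at 8.28, 9.16, 7.47 and 6.49 in AD_TG, 10.01, 9.32, 7.41 and 10.18 in AD_B6, and 9.84, 10.01, 8.84 and 10.40 in SJL_B6. Of the 4 AD_TG libraries, replicate 2 alone reached the SJL_B6 range. Psmd14, which cuts ubiquitin chains from the substrate, was at 8.97, 7.88, 7.31 and 9.13 in AD_TG, 9.43, 9.13, 0 and 7.33 in AD_B6, and 6.999, 3.01, 9.11 and 7.04 in SJL_B6. Psmd13 was at 9.59, 8.42, 9.30 and 8.004 in AD_TG, 9.61, 8.39, 7.82 and 4.27 in AD_B6, and 7.87, 7.26, 8.93 and 1.82 in SJL_B6. For both of these lid genes AD_TG lacks the very low values that single libraries of the other groups show. The scaffold Psmd3 had the smallest spread of all members (SD 0.52), between 9.55 and 10.22 in AD_TG, 8.89 and 10.49 in AD_B6, and 9.20 and 10.39 in SJL_B6. Psmd12 had the largest in the lid (SD 3.28), at 7.74, 9.28, 1.02 and 8.80 in AD_TG, 9.88, 9.15, 0 and 7.93 in AD_B6, and 9.49, 7.43, 9.18 and 7.63 in SJL_B6, where 2 low libraries stand against 10 that range from 7.43 to 9.88. The other lid genes ranged over 0 to 8.56 for Psmd6, 7.71 to 10.23 for Psmd8 and 8.25 to 9.82 for Psmd11.

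The chaperones Psmd5, Psmd9 and Psmd10, which hold ATPases during assembly of the base, were each missed in at least 1 of the 12 libraries. Psmd9 was at 7.53, 7.58, 7.92 and 2.91 in AD_TG, 7.54, 8.92, 0 and 0.03 in AD_B6, and 9.43, 1.63, 5.76 and 3.78 in SJL_B6. Psmd10 was at 5.59, 6.51, 9.15 and 5.86 in AD_TG, 8.03, 3.46, 7.45 and 6.55 in AD_B6, and 5.60, 7.97, 6.55 and 0 in SJL_B6. Psmd5 was at 6.41, 4.29, 7.87 and 8.79 in AD_TG, 9.21, 7.42, 0 and 1.22 in AD_B6, and 5.53, 8.81, 8.18 and 8.66 in SJL_B6. Each of the 3 chaperones thus varies by more than 3 inside every group. The activators Psme1 and Psme2 form the interferon-induced ring, whereas Psme3 is nuclear and Psme4 is a single large cap. Psme3 was at 9.80, 8.72, 8.26 and 8.77 in AD_TG, 9.56, 8.41, 9.24 and 9.22 in AD_B6, and 10.43, 8.13, 10.13 and 9.08 in SJL_B6. Psme2 was at 7.27, 8.04, 8.27 and 8.36 in AD_TG, 1.93, 5.60, 8.26 and 5.63 in AD_B6, and 7.05, 5.34, 7.88 and 8.79 in SJL_B6. AD_B6 overlaps AD_TG for Psme2 through replicate 3 alone, and Psme2 shares 54.9% of its 50-base runs with the copy Psme2b. Psme1 ranged from 4.71 in AD_B6 replicate 3 to 9.66 in SJL_B6 replicate 1, and Psme4 from 7.33 to 9.95.

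The 41 members that passed the filter on low values (x of 10 or more in 4 or more libraries, passed by 11955 genes) had a median SD over the 12 libraries of 1.31, against 2.73 for all genes tested. Most of that gap goes with level. Among genes with a mean of 9 to 10, the 12 members had a median SD of 0.73 and all genes 0.85, and between 8 and 9 the 8 members had 1.03 and all genes 1.19. Between 4 and 8, the 18 members had 2.42 and all genes 3.01. The 2 members between 10 and 12, Psmd1 and Psmd4, had 0.62 and all genes 0.61. For deviations from the group means across the 12 libraries, the median pairwise correlation was 0.06 over 820 pairs of members. Of these pairs, 56.1% were above 0. Over all pairs of tested genes the median was 0.0075. A median near 0 does not show that single pairs are unrelated. In AD_B6 replicate 3, for example, 9 tested members were undetected together. Libraries and depth are shared by all pairs, and no test is given.

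**Figure D3:**
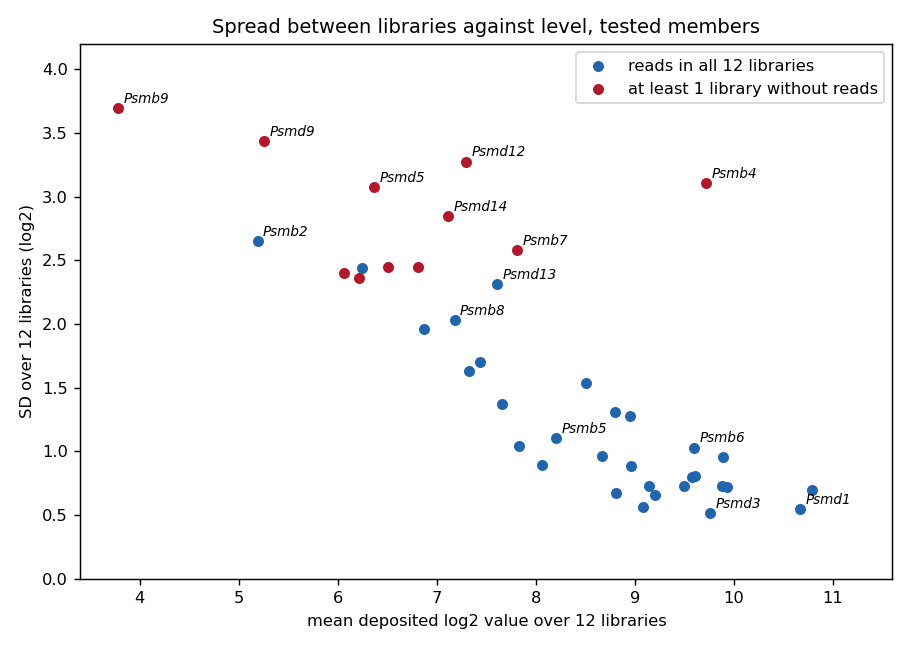
SD over the 12 libraries (vertical) against the mean deposited log2(x + 1) value (horizontal) for the 41 tested proteasome genes, blue where the gene was detected in all 12 libraries and red where at least 1 library lacked it. Members with a mean above 9 have SDs below 1, except Psmb6 at 1.03 and Psmb4 at 3.11, and Psmb9, Psmd9 and Psmd12 are the members with the largest SDs.

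AD_B6 set against SJL_B6 compares the AD label with the SJL label. No proteasome gene passed the threshold, a Benjamini-Hochberg adjusted p below 0.05 in limma's test over all 11955 genes; the percent called was 0 for members and for all genes. The catalytic genes Psmb10 and Psmb7 had the lowest unadjusted p among members. The Psmb10 difference was -3.60 (SE 1.70, 95% interval -7.10 to -0.10, limma adjusted p = 0.869). The Psmb7 difference was -2.94 (SE 1.39, 95% interval -5.81 to -0.07, limma adjusted p = 0.869). These are 2 of 41 members at an unadjusted p below 0.05, where 5.41% of all genes (647) were. Without AD_B6 replicate 3 the values were -2.11 (SE 1.37) for Psmb10 and -0.95 (SE 0.83) for Psmb7, and no member was below 0.05, where 5.72% of all genes were. Psmb7 is also the 1 member of 41 whose groups did not overlap in this comparison, where 1.91% of all genes had AD_B6 wholly below SJL_B6 and 0.912% wholly above; the 3 other AD_B6 libraries, at 7.61 to 8.36, also lie below SJL_B6.

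Differences of the other catalytic genes in this comparison were -1.38 for Psmb8 (SE 1.42), 1.53 for Psmb9 (SE 2.68), -0.37 for Psmb5 (SE 0.95) and -0.65 for Psmb6 (SE 0.69). Without AD_B6 replicate 3 they were -1.22 for Psmb8, -0.41 for Psmb9, 0.56 for Psmb5 and -1.14 for Psmb6, so Psmb9 and Psmb5 turn in sign. Psmb4 had -2.88 (SE 1.43), and -0.23 without AD_B6 replicate 3. Among differences above 0, the 3 smallest p belonged to Psmd2 at 0.80 (SE 0.57), Psmb1 at 0.64 (SE 0.57) and Psma1 at 1.29 (SE 1.29), and without that library these were 1.02, 0.60 and 1.11. None of these 8 genes passed the threshold, and the lowest adjusted p among members was 0.869. Differences were above 0 for 13 members and below 0 for 28, with a median of -0.46, while 40.2% of all genes were above 0, with a median of -0.31. By role, 3 of 7 alpha ring genes, 2 of 6 base ATPases and 3 of 4 non-catalytic beta genes were below 0. So were 3 of 3 constitutive and 2 of 3 immune catalytic genes, and 2 of 3 base genes that are not ATPases. The lid had 7 of 8 below 0, the chaperones 2 of 3 and the activators 4 of 4. Leaving out AD_B6 replicate 3 gave 4 activators and 3 lid genes below 0. Without AD_B6 replicate 3 the split became 20 above and 21 below, the median -0.14 and that of all genes -0.11.

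AD_TG set against AD_B6 compares the TG label with the B6 label among the AD libraries. Again 0 members and 0% of all genes passed, and 0 of 41 members had an unadjusted p below 0.05, where 5.35% of all genes (639) did. Psma5 came nearest among members, at 3.09 (SE 1.64, 95% interval -0.28 to 6.47, limma adjusted p = 0.871), and stood at 1.35 without AD_B6 replicate 3. Psmb7 had 2.56 (SE 1.39), and 0.57 without that library, and Psme2 had 2.63 (SE 1.49), and 3.60 without it. Below 0, the smallest p belonged to Psmd7 at -1.38 (SE 0.78), Psma1 at -1.78 (SE 1.29, and -1.60 without AD_B6 replicate 3) and Psmc2 at -1.19 (SE 0.88). The other catalytic genes had 2.54 for Psmb10 (SE 1.70), 2.39 for Psmb8 (SE 1.42), 0.08 for Psmb9 (SE 2.68), 0.80 for Psmb5 (SE 0.95) and 0.80 for Psmb6 (SE 0.69). Without AD_B6 replicate 3 they were 1.05 for Psmb10, 2.23 for Psmb8, 2.01 for Psmb9, -0.14 for Psmb5 and 1.29 for Psmb6. All 6 catalytic genes are above 0 with all libraries and none passed, while Psmb5 turns in sign without that library and Psmb9 turns to -0.67 under quantile normalization. This comparison shares the AD_B6 libraries with the one above, where their low values enter with the opposite sign. Differences were above 0 for 26 members and below 0 for 15, with a median of 0.23, against 62.8% of all genes above 0 and a median of 0.41. Quantile normalization, which moves the median of all genes to 0.08, gave 22 above and 19 below. Without AD_B6 replicate 3, 19 were above and 22 below, with a median of -0.14 against 0.22 for all genes. Psmd7 at -1.99 (SE 0.72), Psme2 at 3.60 (SE 1.57) and Psmc2 at -1.80 (SE 0.84) then had an unadjusted p below 0.05, which is 3 of 41 members where 5.61% of all genes had one, each with a limma adjusted p of 0.858. No member's groups were apart, where 1.95% of all genes had AD_TG wholly above and 0.928% wholly below AD_B6.

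AD_TG set against SJL_B6 differs in both parts of the label. It shares its AD_TG and SJL_B6 libraries with the comparisons above, and AD_B6 enters only the estimate of spread. No member and 0% of all genes passed. Psmd7 was the 1 member of 41 with an unadjusted p below 0.05, where 2.99% of all genes (357) were, at -1.92 (SE 0.78, 95% interval -3.53 to -0.31, limma adjusted p = 0.999). Psmb3 had -2.23 (SE 1.25) and Psmd4 -0.74 (SE 0.47). Among differences above 0, the smallest p belonged to Psmd13 at 2.36 (SE 1.40), Psmd2 at 0.59 (SE 0.57) and Psmd14 at 1.78 (SE 1.74). The constitutive catalytic genes had 0.43 for Psmb5 (SE 0.95), 0.15 for Psmb6 (SE 0.69) and -0.37 for Psmb7 (SE 1.39). The immune genes had 1.01 for Psmb8 (SE 1.42), 1.60 for Psmb9 (SE 2.68) and -1.06 for Psmb10 (SE 1.70). Differences were above 0 for 20 members and below 0 for 21, with a median of -0.05, against 53.3% of all genes above 0 and a median of 0.08. No member's groups were apart, where 1.46% of all genes had AD_TG wholly above and 1.07% wholly below SJL_B6. The median half-width of a member's 95% interval was 2.04 in each comparison.

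**Figure D4:**
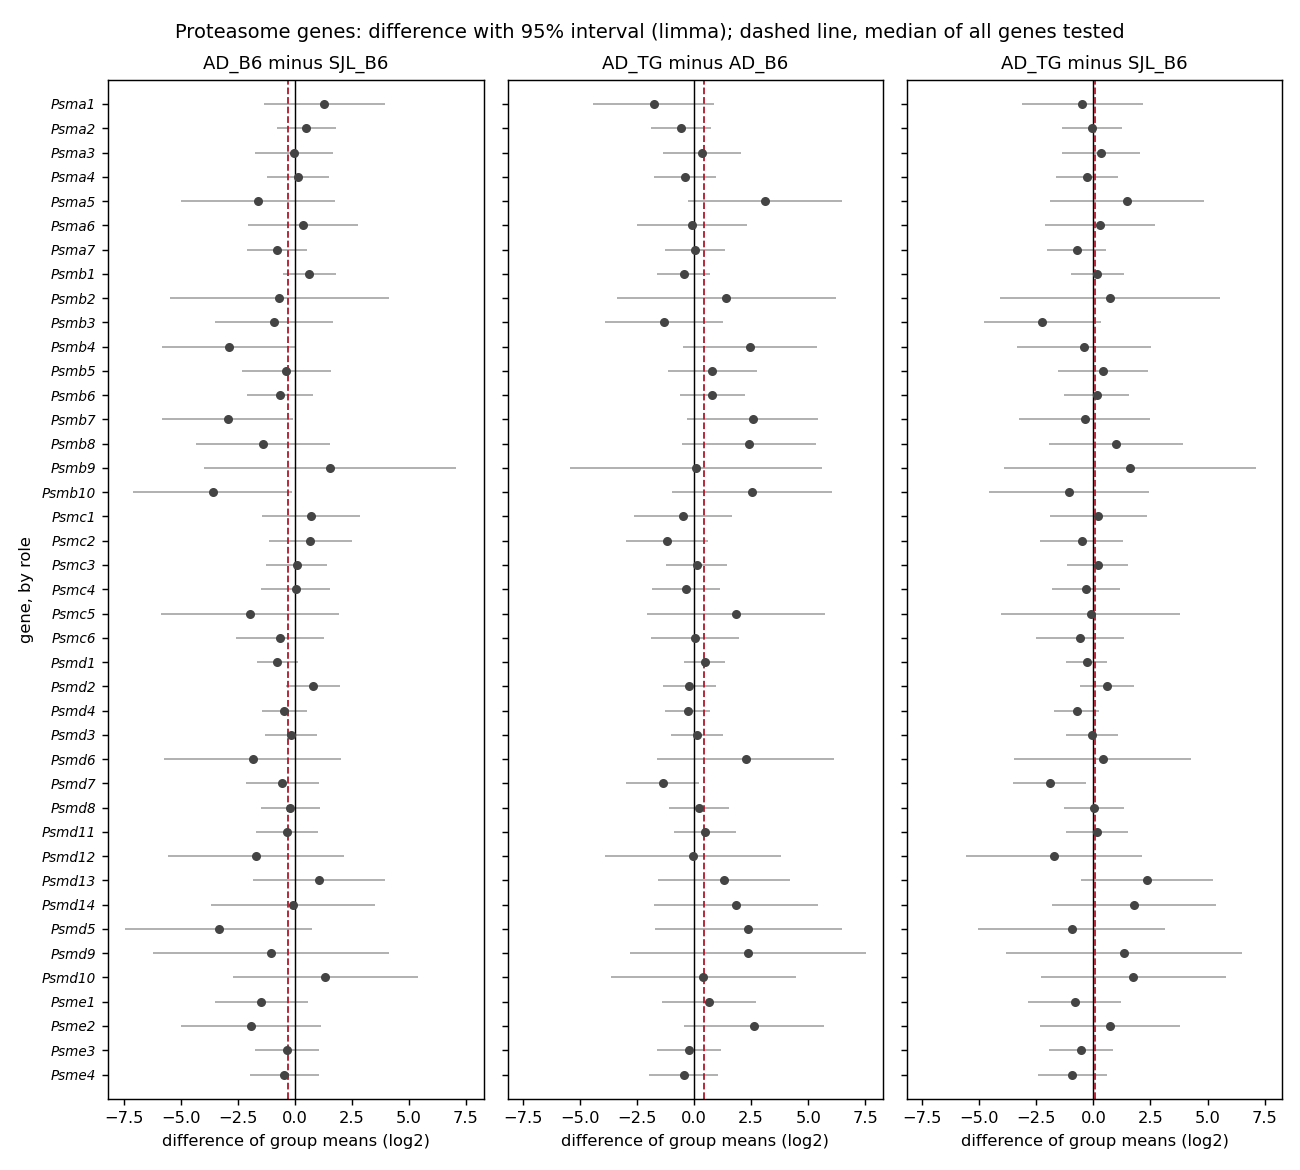
Difference in deposited log2(x + 1) value with its 95% interval (limma) for the 41 tested proteasome genes, for AD_B6 minus SJL_B6, AD_TG minus AD_B6 and AD_TG minus SJL_B6 from left to right, with the median of all tested genes as a dashed line. Intervals that leave out 0 belong to Psmb10 and Psmb7 in the first panel and to Psmd7 in the third; none of the 41 genes passed the adjusted threshold in any panel.

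Partner genes of the pathway that carry other symbols were described in the same fit, from a list of 46, of which 42 are among the symbols and were tested. None passed in any comparison. Differences were above 0 for 20 and below 0 for 22 in AD_B6 against SJL_B6, 29 and 13 in AD_TG against AD_B6, and 24 and 18 in AD_TG against SJL_B6, with medians of -0.07, 0.16 and 0.11. Without AD_B6 replicate 3 the first became 19 and 23, with a median of -0.08. The second became 27 and 15, with a median of 0.30. Of all genes, 40.2, 62.8 and 53.3% were above 0 in the 3 comparisons, with medians of -0.31, 0.41 and 0.08. Without that library it was 46.8% in the first and 56.5% in the second. Of the 13 interferon and class I partners of the immune subunits, 5 were above 0 in the first comparison, 10 in the second and 6 in the third. Jak2, a kinase of the interferon gamma receptor, was at 7.55, 0, 8.14 and 7.43 in AD_TG, 2.73, 0, 0 and 2.31 in AD_B6, and 8.28, 6.89, 6.35 and 8.47 in SJL_B6. Every AD_B6 value of Jak2 lay below every SJL_B6 value, which also held for 1.91% of all genes tested. The Jak2 difference was -6.24 (SE 2.31, limma adjusted p = 0.869), and -5.82 (SE 2.44) without AD_B6 replicate 3. Akirin2, an adaptor for nuclear import of proteasomes, was at 9.16, 9.11, 8.39 and 8.30 in AD_TG, 7.68, 7.27, 9.86 and 9.60 in AD_B6, and 4.56, 5.34, 7.96 and 8.34 in SJL_B6. Its AD_TG values reached the SJL_B6 range through replicate 4 alone, and AD_TG against SJL_B6 gave 2.19 (SE 1.05, limma adjusted p = 0.999). These were the 2 list genes with an unadjusted p below 0.05 in any comparison of the 12 libraries. That is 1 of 42 in the first comparison, 0 in the second and 1 in the third, where 5.41, 5.35 and 2.99% of all genes were. Tap1, the neighbour of Psmb9, was at 8.59, 2.68, 7.11 and 3.97 in AD_TG, 8.78, 0.87, 0 and 8.29 in AD_B6, and 8.42, 7.99, 7.98 and 8.87 in SJL_B6. It was listed at 0 in AD_B6 replicate 3, the library with the highest Psmb9 value.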

How the data were processed

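RNA was measured in 12 libraries, with 500 ng of total RNA entering a Lexogen QuantSeq kit, per the labels' protocols. Deposited by the authors were 12 tables of log2 values, 1 value per symbol; the scaling is not stated in the sources used here. The submitters' processing notes name Bowtie2, bedtools and hg19, without versions; hg19 is a human build although the symbols are those of the mouse, so no coordinate of the authors was used. Of 23282 entries, 44 repeated a symbol (35 symbols) and were left out in favour of the entry with the highest mean. Depth was estimated from the even steps of the low linear values, with 91.3 to 100% of values under 20 within 0.15 steps of a whole read.

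Genes at a linear value of 10 or more in 4 or more libraries, 11955 in all, entered 1 fit over the 3 groups with limma 3.58.1 in R 4.3.3 (eBayes with trend), two-sided, with Benjamini-Hochberg adjustment over all of them and a threshold of 0.05. The code was tested on the values of each gene shuffled between libraries, with known log2 changes added to some genes. Replicate numbers did not pair the libraries. The members, role groups, pathway list and marker lists were chosen with earlier results of these data known, and no list was given a test. Genes named are the 6 catalytic subunits, in each comparison the 3 members per direction with the smallest p, members detected in fewer than 6 libraries, and in each role group the members with the smallest and largest SD; Jak2, Akirin2, Tap1, Psmc3, Psmd5 and the list of undetected members were chosen after their values were seen. Sequences and gene positions are from GENCODE M21 on GRCm38. Python 3.11.15 and matplotlib 3.10.9 were used for the descriptions and plots. Alternatives tried were other filters, scalings, pseudocounts (16 in place of 1), priors, library weights, a replicate block, fits of only the groups compared, and leaving out each library.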

Additional observations from a re-analysis of the deposited data

Results flagged for a closer look

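Among 90 sets of 4 libraries (1 gene or score in 1 group), 11 were flagged. In these, the gap of 1 library to its nearest neighbour, as a share of the range, was above Dixon's 95% critical value. Some of the genes were named for a large SD or for few detections in these same libraries. The usual rate of about 1 in 20 is therefore no yardstick for this count. AD_B6 replicate 3 accounts for 4 of the 11. There Psmb4 was at 0 against 10.46 to 10.68 in the other AD_B6 libraries (ratio 0.980), Psmb7 at 0 against 7.61 to 8.36 (ratio 0.910), Psma5 at 0 against 6.61 to 7.66 (ratio 0.863) and Psmb5 at 5.02 against 8.44 to 8.99 (ratio 0.862). The same library had the fewest symbols detected, 8748, at an estimated depth of 8913883 reads. The part of its low detection in the 4 values was not tested.

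Psma8 gave 3 more, each a single library above others at or near 0: AD_TG replicate 3 at 5.90 (ratio 0.989), SJL_B6 replicate 3 at 1.48 (ratio 0.989) and AD_B6 replicate 4 at 0.03, below 1 read (ratio 1). Psmd9 was at 2.91 in AD_TG replicate 4 against 7.53 to 7.92 in the other AD_TG libraries (ratio 0.921). Psmb8 was at 7.45 in AD_TG replicate 2 against 8.52 to 8.68 (ratio 0.870). Psmc2 was at 6.02 in SJL_B6 replicate 1 against 9.39 to 10.06 in the other SJL_B6 libraries (ratio 0.834). The mean of the immune subunits minus that of the constitutive subunits was -0.26 in AD_TG replicate 3. In the other AD_TG libraries it was -3.45 to -2.97 (ratio 0.851). In AD_TG replicate 3, Psmb9 was at 8.31, the highest of AD_TG. The immune mean there was 7.86, against 5.51 to 6.765 in the other AD_TG libraries. The constitutive mean was 8.11, the lowest of AD_TG, against 8.96 to 9.74 in the others.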

How the results depend on the processing

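No proteasome gene passed the adjusted threshold under any of the alternatives; among 681 alternative values of the 33 named differences the lowest adjusted p was 0.644 (limma). Over all genes, limma without the trend called 10, 10 and 2 genes for AD_B6 minus SJL_B6, AD_TG minus AD_B6 and AD_TG minus SJL_B6, none of them members. A replicate block, although the numbers did not pair the libraries (correlations of -0.02 to 0.07 over 12 pairs, with 4 of 12 libraries closest to their own number), also called 0 members in each comparison, with 3, 1 and 1 of 41 at an unadjusted p below 0.05, where 5.73, 5.73 and 3.15% of all genes were. Counting a member as detected only at a linear value of 10 gave a mean count per library of 40 in AD_TG, 36.75 in AD_B6 and 38.25 in SJL_B6, against 42, 39.25 and 41.5.

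Of the 33 differences, 25 kept their sign under every alternative run, and the 8 that turned all belong to catalytic genes. The other genes were named for their small p, and some alternatives, such as the replicate block, cannot move a difference. The count is therefore no measure of how steady the members are. Quantile normalization turned Psmb5 in AD_B6 against SJL_B6 to 0.10 and Psmb9 in AD_TG against AD_B6 to -0.67, and log2(x + 16) turned that Psmb9 difference to -0.029. With 1 library left out at a time, AD_B6 against SJL_B6 ranged over -0.76 to 0.56 for Psmb5, -1.14 to 0.11 for Psmb6 and -0.41 to 3.38 for Psmb9. AD_TG against AD_B6 ranged over -0.14 to 1.19 for Psmb5 and -1.33 to 2.01 for Psmb9. AD_TG against SJL_B6 ranged over -0.15 to 0.34 for Psmb6, -0.80 to 0.086 for Psmb7 and -0.30 to 1.56 for Psmb8. The immune minus constitutive difference ranged over -0.74 to 1.47, -1.02 to 1.19 and -0.42 to 1.26 in the 3 comparisons, and the median of the members over -0.58 to -0.14, -0.14 to 0.37 and -0.13 to 0.09. Keeping only genes detected in all 12 libraries drops Psmb7, Psmb9 and Psmb10, so it gives no immune minus constitutive value. Low genes limit precision: between means of 4 and 8 the median SD of members was 2.42, against 0.73 between 9 and 10.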
